A study of Mus musculus with 36 samples.

Results

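The libraries described here measured how far the response of mouse embryonic stem cells (mESCs) to substrate stiffness depended on PD03 when LIF was absent. PD03 inhibits MEK, the kinase that activates ERK, and LIF is the cytokine that maintains self-renewal through STAT3. The interaction of a gene is its log2 fold change between soft and stiff substrates in serum + PD03 minus the same log2 fold change in serum. A negative interaction means that the gene stood lower on soft, relative to stiff, when PD03 was present. It rests on 15 of the 36 libraries of the series, namely 6 from soft substrates in serum + PD03 and 3 each from stiff substrates in serum + PD03, soft substrates in serum and stiff substrates in serum. All of these cells were wild-type mESCs (labelled 129m wt) kept for 48 h without LIF on StemBond hydrogels, which are polyacrylamide gels whose extracellular matrix coating is bound covalently to the gel. They represent 1 cell type in culture, and the labels do not say that replicate libraries came from separate cultures, so p-values measure the spread between these libraries, which may be technical. Total counts ran from 10405696 to 26635239 per library.

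In mESCs, ERK activity favours the exit from naive pluripotency, the state of the pre-implantation epiblast, and blocking MEK holds cells in it. Substrate stiffness acts on adhesion and the actin cytoskeleton, whose tension sets the activity of the transcriptional regulators SRF and YAP. The interaction asks whether a gene answers stiffness in the same way with ERK signalling intact and with it blocked.

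The inhibitor acted on both substrates. Spry4, a feedback inhibitor of ERK signalling, fell by 6.77 on the log2 scale on soft and by 7.56 on stiff, and Etv4, an ERK-driven transcription factor, changed by -5.22 and -5.64. The markers of general pluripotency, Pou5f1, Sox2 and Sall4, summed to between 1800 and 2521 CPM (counts scaled to library size) in all 15 libraries. Fibroblast markers (7 of 8 tested) summed to 25.1 to 32.1 CPM on soft and 51.9 to 57.1 CPM on stiff in serum, and to 36.1 to 48.4 and 74.6 to 84.2 CPM in serum + PD03. Trophoblast markers (7 of 7 tested) summed to 72.4 to 77.2 CPM on soft and 72 to 79.8 CPM on stiff in serum, against 225 to 250 and 287 to 296 CPM in serum + PD03. Primitive endoderm markers (7 of 7 tested) lay at 47.6 to 58.6 and 49 to 59.3 CPM in serum and at 83.1 to 106 and 118 to 127 CPM in serum + PD03. The sums of fibroblast markers did not overlap between substrates in either medium. Those of trophoblast and primitive endoderm overlapped in serum and not in serum + PD03. Taken singly, 3 of the 7 trophoblast genes were lower and 1 higher on soft past the threshold in serum, and 4 were lower in serum + PD03. Of the 7 primitive endoderm genes none passed in serum, and 1 was lower in serum + PD03. Over all genes 2.77% and 3.42% were lower on soft in these media, and 2.08% higher in serum. The median interactions of these lists were 0.072 and -0.12. Mesendoderm markers (5 of 6 tested) summed to 18.4 to 22 CPM on soft and 15.6 to 17.9 CPM on stiff in serum. Neuroectoderm markers (3 of 5 tested) summed to 43.3 to 46 and 33.6 to 39 CPM. Both sums were thus higher on soft in serum, and both overlapped in serum + PD03. In serum all 5 mesendoderm genes had a log2 fold change above 0, but only 1 of the 3 neuroectoderm genes did (median -0.073). Sums of 2-cell-like markers (4 of 6 tested) overlapped in both media. The part of these markers in the results below was not tested. One library stood apart. Stiff library 2 in serum had 20970 genes with a count, against 22691 in stiff library 3 at a like depth, and 9 mitochondrial transcripts summed to 4493 CPM in it, against 8096 to 12819 CPM in the other 14 libraries. Its part in the results was not tested beyond fits without it, which are given beside the counts they change. Sequencing pools, as named in the sample descriptions, nearly coincided with substrate. All stiff libraries came from one pool, all soft libraries in serum from another, and the soft libraries in serum + PD03 from both, 2 from the former and 4 from the latter. The columns did not show which 2 these were. Nor did they show how the stiff libraries in serum + LIF, which are outside these 15, were split between 2 pools. Each result was therefore refitted with pool as a term under all 45 possible assignments of both groups together.

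Of 17702 genes tested, 141 had an interaction past the threshold (edgeR quasi-likelihood test, Benjamini-Hochberg adjusted p under 0.05), which is 0.797% of all genes. The interaction was positive for 72 genes (0.407%) and negative for 69 (0.39%), with 2024 genes at an unadjusted p under 0.05. Without stiff library 2 in serum, the library that stood apart, 91 genes passed, 24 positive and 67 negative, so that most of the loss was among positive genes. Its median over all genes was 0.000423 on the log2 scale. Most interactions were modest, with a median size of 0.39, a smallest of 0.22 and a largest of 3.98, and 36 of the 141 reached 0.5. Just inside the threshold lay Plec (adjusted p = 0.0484) and just outside it Adrb3 (adjusted p = 0.0502).

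The separate effects behind the interaction were more frequent. In serum 4.85% of genes differed between soft and stiff, 2.08% being higher and 2.77% lower on soft. In serum + PD03 5.55% differed, 2.13% being higher and 3.42% lower on soft. PD03 changed 57.5% of genes on soft, raising 29% and lowering 28.5%, and 55.8% on stiff, raising 28.4% and lowering 27.4%.

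The 141 genes fell into few patterns. The most frequent was a difference in serum that was not past the threshold in serum + PD03. It held for 33 genes that were higher on soft in serum, with a median log2 fold change of 0.42 in serum and -0.01 in serum + PD03. It also held for 38 genes that were lower on soft in serum, with medians of -0.26 and 0.08. The opposite pattern, a difference past the threshold in serum + PD03 and not in serum, was found for 18 genes that were lower on soft and 16 that were higher. Genes past the threshold with opposite signs in the 2 media numbered 14, of which 6 were higher and 8 lower on soft in serum. A further 4 genes were lower on soft in both media and more so with PD03, and 7 were higher in both and less so. Another 1 was lower in both and less so with PD03, and 10 passed the threshold in neither medium taken alone. The calls in each medium changed in number with the pool term, as given at the end, and the patterns were not recomputed with it. Soft libraries numbered 3 in serum and 6 in serum + PD03. A gene said below to differ in 1 medium alone passed there and not in the other, which does not show equal levels in the other.

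**Figure D1:**
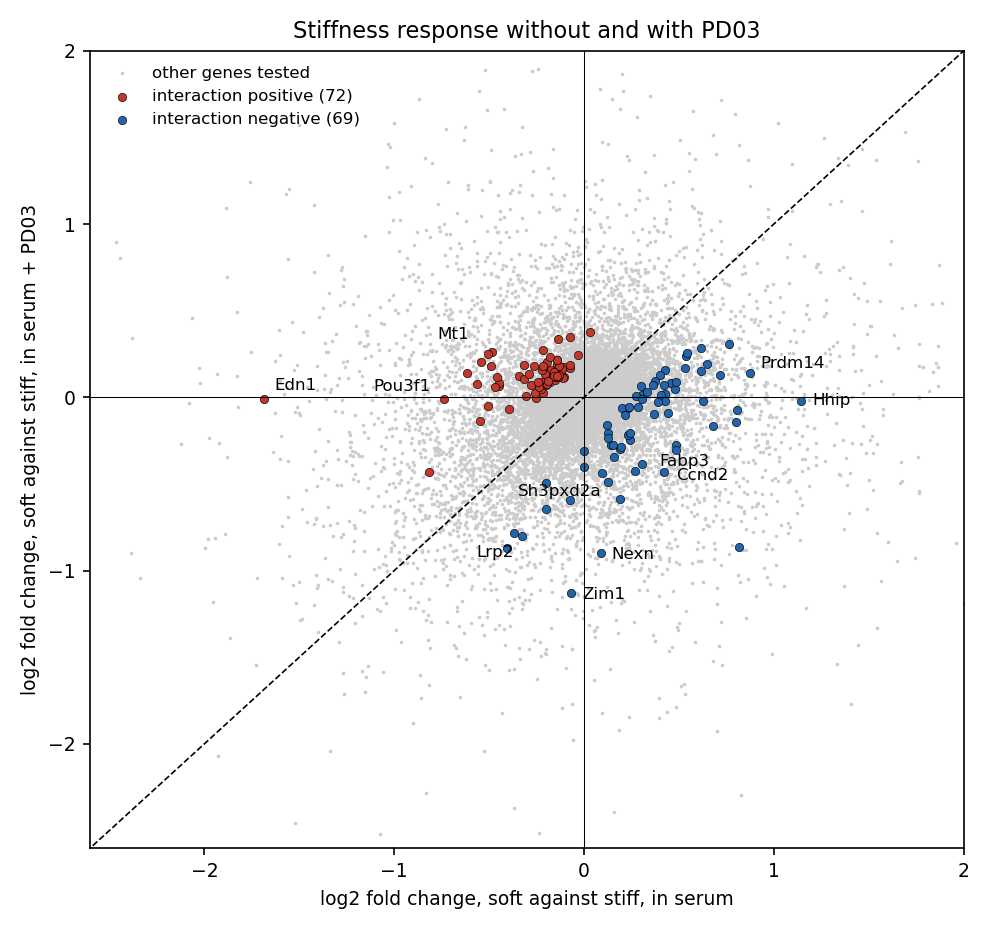
Log2 fold change between soft and stiff substrates in serum (x axis) against that in serum + PD03 (y axis) for each gene tested. Red and blue points are the 72 and 69 genes with a positive and a negative interaction past the threshold, grey points the other genes, and the dashed line marks equal responses. Red points lie above the dashed line and blue points below it, and genes that differed in serum alone had a median response of 0.08 (red) and -0.01 (blue) in serum + PD03. The axes leave out 70 genes, of which 2 (Alox15 and Gm13068) passed the threshold.

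The interaction is also the difference between the effects of PD03 on the 2 substrates. Of the 69 negative genes, 47 were raised by PD03 on both substrates and 8 were lowered on both. Of the 72 positive genes, 44 were lowered on both and 7 were raised on both. Over all genes tested, 24.5% were raised and 23.3% lowered on both. The median PD03 effect of the negative genes was 1.12 on stiff and 0.58 on soft, and that of the positive genes was -0.68 on stiff and -0.29 on soft. Because the same libraries give the PD03 effects and the interaction, these shares describe the genes and carry no test.

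Among the 8 genes that went from lower on soft in serum to higher on soft in serum + PD03 were the metallothioneins Mt1 and Mt2, small cysteine-rich proteins that bind zinc and other metals. Both genes belong to the pre-implantation epiblast cluster. The promoters of this neighbouring pair are shown because the pair had the smallest p of the genes with a positive interaction. They are taken from RefSeq on GRCm38.p6, from 250 bases before to 50 bases after the annotated start, 5′ to 3′ on the plus strand. Capitals mark the core of the metal response element, TGCACNC or TGCGCNC on either strand.
Mt1, chr8:94178839-94179138: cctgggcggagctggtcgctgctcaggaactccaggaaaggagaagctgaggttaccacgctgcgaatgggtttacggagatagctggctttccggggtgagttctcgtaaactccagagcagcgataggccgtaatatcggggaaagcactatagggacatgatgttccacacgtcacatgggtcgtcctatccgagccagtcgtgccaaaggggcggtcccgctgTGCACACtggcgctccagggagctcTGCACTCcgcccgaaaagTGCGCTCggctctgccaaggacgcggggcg
Mt2, chr8:94172368-94172667: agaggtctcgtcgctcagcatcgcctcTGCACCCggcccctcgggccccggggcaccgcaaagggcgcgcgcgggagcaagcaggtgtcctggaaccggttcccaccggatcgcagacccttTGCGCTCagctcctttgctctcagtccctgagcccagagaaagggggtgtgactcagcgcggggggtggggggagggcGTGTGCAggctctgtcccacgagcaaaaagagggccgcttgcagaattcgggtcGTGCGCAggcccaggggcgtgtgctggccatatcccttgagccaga
The Mt1 window held 3 such matches and the Mt2 window 4, the latter also holding 1 match to the AP-1 motif TGANTCA. At least 1 metal response core was present in 25.7% of the 32851 promoters of this length in the table, and 3 or more in 1.97%. Among the 11988 promoters matched to tested genes the share with at least 1 was 36.1%. It was 62.1% of the 58 promoters of positive genes, which include Mt1 and Mt2, and 38% of the 50 of negative genes. These shares are a description without a test, and base composition was not matched. A match describes the letters of the window and is not evidence of a bound site.

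Mt1 (ENSMUSG00000031765, GRCm38 chromosome 8, 94179082 to 94180327, plus strand) stood at 273, 287 and 242 CPM on stiff and at 189, 184 and 200 CPM on soft in serum. In serum + PD03 it stood at 162, 174 and 163 CPM on stiff, and on soft at 191 CPM in the lowest, 198 CPM at the median and 217 CPM in the highest of the 6 libraries. The groups did not overlap in either medium, and the order of soft and stiff was inverted. The log2 fold change between soft and stiff was -0.49 ± 0.06 (SE) in serum and 0.26 ± 0.06 in serum + PD03, an interaction of 0.75 ± 0.09 with an edgeR adjusted p of 1.42e-07. Mt2 (ENSMUSG00000031762, chromosome 8, 94172664 to 94173568, plus strand) followed the same course, with 266, 295 and 245 CPM on stiff and 170, 179 and 205 CPM on soft in serum. In serum + PD03 its stiff libraries held 201, 217 and 194 CPM and its soft libraries between 227 and 243 CPM, again without overlap. Its interaction was 0.75 ± 0.09 (edgeR adjusted p = 8.94e-07). PD03 lowered both genes on stiff, by 0.68 and 0.39 on the log2 scale, while on soft they changed by 0.07 and 0.35. Zfp36l2, which encodes a protein that binds AU-rich mRNA, was also lower on soft in serum and higher on soft in serum + PD03. PD03 lowered it on both substrates, by 0.73 on soft and by 1.24 on stiff on the log2 scale, with an interaction of 0.50 ± 0.07 (edgeR adjusted p = 1.67e-05).

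In the negative direction the reversal was clearest for Sh3pxd2a, an adaptor protein of podosomes and invadopodia (ENSMUSG00000053617, chromosome 19, 47260174 to 47464401, minus strand), which had the smallest p of all genes. It stood at 49.7, 48.0 and 48.4 CPM on stiff and at 55.8, 58.7 and 61.5 CPM on soft in serum. In serum + PD03 the stiff libraries held 75.5, 74.5 and 68.5 CPM, and the soft libraries 51.5 CPM at the lowest, 54.1 CPM at the median and 56.8 CPM at the highest. PD03 thus raised it on stiff, by 0.58 on the log2 scale, and changed it by -0.12 on soft, and the groups of neither medium overlapped. The interaction was -0.69 ± 0.07 (edgeR adjusted p = 4.49e-09).

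Fabp3, a carrier of fatty acids in the cytoplasm (ENSMUSG00000028773, chromosome 4, 130308595 to 130315463, plus strand), was raised several-fold by PD03 on both substrates, and more on stiff. Its promoter is shown as being that of the leading reversed gene of the negative direction whose sequence the table held. It has 1 metal response core, marked as above, and no match to the AP-1 motif or to the TEAD motif GGAATG, which 7.81% and 14.7% of the promoters held.
Fabp3, chr4:130308488-130308787: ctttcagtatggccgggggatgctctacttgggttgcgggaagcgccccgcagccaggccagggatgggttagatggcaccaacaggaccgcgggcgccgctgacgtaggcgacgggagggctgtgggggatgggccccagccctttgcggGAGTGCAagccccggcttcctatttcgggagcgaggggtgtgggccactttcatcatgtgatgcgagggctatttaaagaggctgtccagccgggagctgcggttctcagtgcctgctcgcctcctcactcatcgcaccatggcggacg
In serum it stood at 55.2, 60.4 and 63.2 CPM on stiff and at 75.3, 75.5 and 69.4 CPM on soft. In serum + PD03 it reached 319, 318 and 302 CPM on stiff, and between 217 and 253 CPM on soft with a median of 243 CPM. Soft libraries were thus the higher ones in serum and the lower ones in serum + PD03, without overlap. The log2 fold change was 0.31 ± 0.07 in serum and -0.39 ± 0.05 in serum + PD03, an interaction of -0.69 ± 0.08 (edgeR adjusted p = 3.91e-07).

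The same inversion was found for AU015836 (-0.76 ± 0.09, edgeR adjusted p = 5.1e-07), for the transcriptional corepressor Bcor (-0.45 ± 0.06, adjusted p = 9.1e-06), for utrophin, Utrn, a large protein linking actin to the membrane (-0.43 ± 0.06, adjusted p = 1.64e-05), and for the G1 cyclin Ccnd2 (-0.85 ± 0.13, adjusted p = 3.27e-05). Ccnd2 was lowered strongly by PD03, on stiff from 66.9 to 76.3 CPM down to 6.81 to 7.94 CPM, and on soft to 4.46 to 6.59 CPM. All 6 genes kept an adjusted p under 0.05 in each of the 45 pool assignments and without any one of the 15 libraries, as did Mt1, Mt2 and Zfp36l2.

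**Figure D2:**
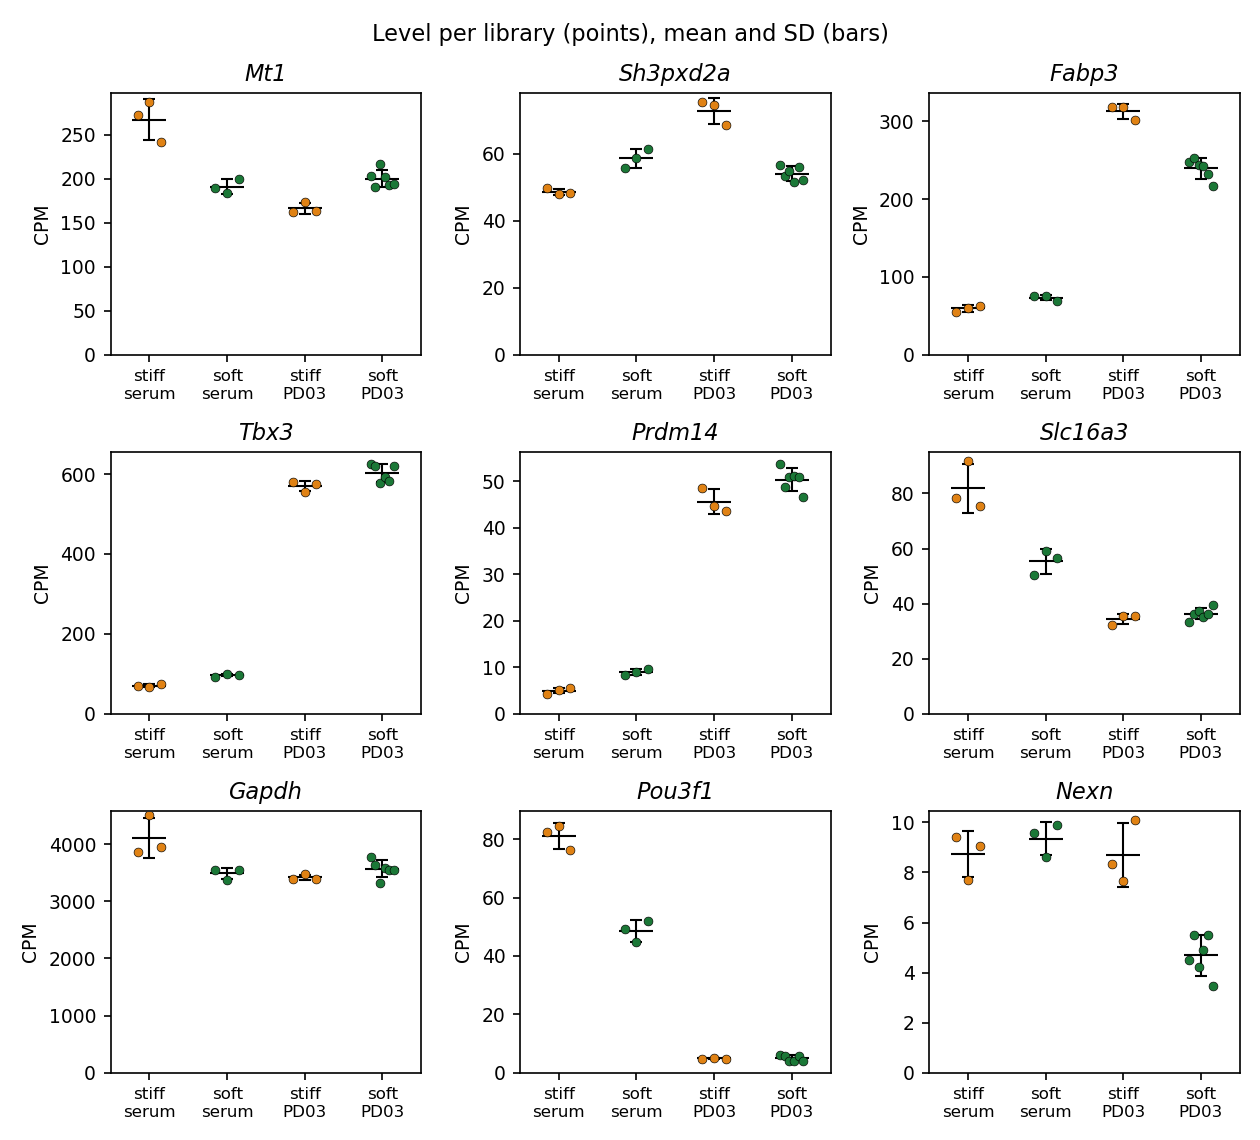
Level in CPM (y axis, from 0) of 9 genes in each library on stiff (orange) and soft (green) substrates in serum and in serum + PD03 (labelled PD03). Horizontal bars are group means and error bars the SD (n = 3, or n = 6 on soft with PD03). Mt1, Sh3pxd2a and Fabp3 change the order of soft and stiff with PD03, Slc16a3, Gapdh and Pou3f1 differ in serum, and Nexn differs in serum + PD03.

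Naive pluripotency factors were examined as a list. Of the 15 markers on the naive list, which is that of the study, 5 passed the threshold for a negative interaction and none for a positive one, against 0.797% of all genes. The median interaction of the list was -0.207, and 11 of the 15 were below 0. In serum 12 of the 15 were higher on soft and past the threshold, with a list median of 0.365, and in serum + PD03 8 were, with a median of 0.159. Over all genes 2.08% and 2.13% were higher on soft in these media. The 5 were Tbx3, Prdm14, Nr5a2, Klf2 and Tfcp2l1, all transcription factors that sustain the naive network.

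Tbx3 (ENSMUSG00000018604, chromosome 5, 119670669 to 119684724, plus strand) stood at 69, 67.5 and 75.3 CPM on stiff and at 93.1, 100 and 97.9 CPM on soft in serum. With PD03 it rose to 579, 555 and 575 CPM on stiff and to between 577 and 626 CPM on soft, with a median of 606 CPM. The groups were apart in serum and overlapped in serum + PD03. The log2 fold change went from 0.46 ± 0.05 to 0.08 ± 0.04, an interaction of -0.38 ± 0.06 (edgeR adjusted p = 0.000405). Prdm14 went from 4.30, 5.20 and 5.48 CPM on stiff and 8.29, 8.98 and 9.64 CPM on soft in serum to 48.6, 44.6 and 43.7 CPM on stiff and 46.5 to 53.7 CPM on soft with PD03. Its log2 fold change was 0.87 ± 0.14 in serum and 0.14 ± 0.08 in serum + PD03, and its interaction -0.73 ± 0.16 (edgeR adjusted p = 0.00954). The interactions of the others were -0.29 ± 0.06 for Nr5a2, -0.35 ± 0.08 for Klf2 and -0.27 ± 0.07 for Tfcp2l1, with edgeR adjusted p of 0.00912, 0.0173 and 0.0343.

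These values are ratios, and for genes that PD03 raises strongly the scale matters. In CPM, Tbx3 was 26.4 higher on soft than on stiff in serum and 32.9 higher in serum + PD03, so that the difference of the differences was 6.47 ± 11.9 CPM (SE). For Prdm14 it was 0.678 ± 1.88 CPM. For Tfcp2l1, which was 50.9 CPM higher on soft in serum and 74.5 CPM higher with PD03, it was 23.6 ± 9.14 CPM, of the opposite sign to the log2 interaction. Klf2 (-28.5 ± 11.9 CPM) and Nr5a2 (-17.2 ± 4.11 CPM) kept the negative sign on both scales. Over all 141 genes, 133 had the same sign on both scales and 8 did not, namely these 3 and Cald1, Fam81a, Kit, Sfrp1 and Sox11.

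Other naive factors did not pass the threshold. Esrrb had an interaction of -0.21 ± 0.06 (edgeR adjusted p = 0.0907) and Nanog one of -0.21 ± 0.08 (adjusted p = 0.209), and both were past the threshold and higher on soft in each medium. Klf5 stood at 0.27 ± 0.08 (adjusted p = 0.133). The call of Tfcp2l1 was the least firm of the 5, being kept in 11 of the 45 pool assignments, against 38 for Klf2 and 45 for Tbx3, Prdm14 and Nr5a2. The number of naive members past the threshold was 2 without stiff library 1 in serum and 3 without soft library 2 or 3 in serum.

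Further genes with a negative interaction came from other lists. Tfap2c, a transcription factor of naive cells, of trophoblast and of the germline, stood at 29.6, 34.3 and 29.1 CPM on stiff and 42.2, 45.5 and 38 CPM on soft in serum. With PD03 it stood at 107, 111 and 104 CPM on stiff and 95.8 to 109 CPM on soft, where the groups overlapped. Its interaction was -0.53 ± 0.08 (edgeR adjusted p = 4.63e-05), and it was the only trophoblast marker of 7 past the threshold, against 0.797% of all genes. Jam2, a junctional adhesion molecule, was higher on soft in both media, by 0.53 ± 0.05 and 0.17 ± 0.04, with an interaction of -0.36 ± 0.06 (edgeR adjusted p = 0.000269). In CPM its difference was 52.3 in serum and 51.9 with PD03. Of the 137 tested genes of the pre-implantation cluster 3 were positive (Mt1, Mt2 and Ddah1) and 3 negative (Kat6b, Lrrc34 and Fstl1). That is 4.38% in all, against 0.797% of all genes, and the median of the cluster was -0.015.

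Formative genes mark the step after the naive state. Pou3f1, a POU-domain factor of that step, was the 1 gene of 7 past the threshold and positive, against 0.407% of all genes. Of the 7, 6 were above 0, and the list median was 0.271. Pou3f1 (ENSMUSG00000090125, chromosome 4, 124656807 to 124660655, plus strand) stood at 82.5, 84.5 and 76.2 CPM on stiff and at 49.2, 44.7 and 52.0 CPM on soft in serum. PD03 reduced it to 4.80, 5.20 and 4.75 CPM on stiff and to between 3.90 and 6.18 CPM on soft, where the groups overlapped. The interaction was 0.73 ± 0.16 (edgeR adjusted p = 0.0122) and was past the threshold in 30 of the 45 pool assignments. Otx2 stood at 0.26 ± 0.12 and the methyltransferase Dnmt3b at 0.27 ± 0.08 (adjusted p = 0.378 and 0.128). Of 197 tested genes of the post-implantation cluster 7 were positive and 1 negative (Fxyd6, -0.41 ± 0.07), with a median of 0.086. That is 4.06% in all, against 0.797% of all genes. The positive ones were Pou3f1, the kinase Pim2, Car2, Hmga1 and the glycolytic Tpi1, Eno1 and Ldha. Tpi1, Eno1 and Ldha did not pass without stiff library 2 in serum.

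Pim2 and Pim1, kinases that promote growth and survival, were both positive, with interactions of 0.57 ± 0.10 (edgeR adjusted p = 0.000302) and 0.38 ± 0.08 (adjusted p = 0.00635). Pim2 stood at 125, 129 and 114 CPM on stiff and 90.9, 79.7 and 98.3 CPM on soft in serum, and at 20.6 to 23.6 CPM on stiff and 22.6 to 27.4 CPM on soft with PD03. Pim1 was the only gene of 11 of the LIF and STAT3 pathway past the threshold, against 0.797% of all genes. The median of that list was 0.035. Utf1, a chromatin factor of pluripotent cells, was not past the threshold in serum (-0.14 ± 0.05) and was higher on soft with PD03 (0.34 ± 0.05), with an interaction of 0.48 ± 0.07 (edgeR adjusted p = 4.29e-05). Edn1, which encodes the peptide endothelin, had an interaction of 1.68 ± 0.27 (edgeR adjusted p = 0.000131), at low levels. It stood at 4.26, 4.16 and 2.78 CPM on stiff and 1.28, 1.25 and 0.969 CPM on soft in serum, and at 3.85 to 4.83 CPM on stiff and 3.29 to 5.08 CPM on soft with PD03.

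Glycolysis, the conversion of glucose to pyruvate and lactate, was represented by a list of 18 tested genes. Of these 6 had a positive interaction past the threshold, against 0.407% of all genes, and none a negative one. They were the glycolytic enzymes Gapdh, Tpi1, Eno1 and Aldoa, lactate dehydrogenase Ldha, and Slc16a3, which exports lactate. The list median was 0.207 and 13 of 18 were above 0. In serum 7 of the 18 were lower on soft past the threshold and 3 higher, with a median of -0.127. In serum + PD03 2 were lower and 3 higher, with a median of 0.077. Over all genes 2.77% were lower and 2.08% higher on soft in serum, and 3.42% and 2.13% in serum + PD03.

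Slc16a3 (ENSMUSG00000025161, chromosome 11, 120948480 to 120960868, plus strand) stood at 78.3, 91.9 and 75.4 CPM on stiff and at 50.3, 59.0 and 56.7 CPM on soft in serum. With PD03 it stood at 32.2, 35.6 and 35.5 CPM on stiff and at 33.4 to 39.5 CPM on soft, with a median of 36.4 CPM. The groups were apart in serum and overlapped with PD03, giving an interaction of 0.64 ± 0.11 (edgeR adjusted p = 0.00034). Gapdh stood at 3856, 4509 and 3944 CPM on stiff and 3540, 3367 and 3547 CPM on soft in serum, and at 3390 to 3467 CPM on stiff and 3323 to 3767 CPM on soft with PD03. Its interaction was 0.30 ± 0.06 (edgeR adjusted p = 0.00773). Those of Tpi1, Eno1 and Ldha were 0.31 ± 0.07, 0.33 ± 0.08 and 0.27 ± 0.06, with adjusted p of 0.0113, 0.0265 and 0.0148. Aldoa stood at 1306, 1480 and 1306 CPM on stiff and 1211, 1216 and 1292 CPM on soft in serum, and at 1426 to 1509 CPM on stiff and 1543 to 1611 CPM on soft with PD03. Soft was the lower side in serum and the higher one with PD03, without overlap, although neither difference alone passed the threshold. Its interaction was 0.25 ± 0.06 (edgeR adjusted p = 0.0249).

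The glucose transporters and hexokinases at the head of the pathway did not share these values. Slc2a1 stood at -0.07 ± 0.09, Slc2a3 at -0.07 ± 0.07, Hk1 at -0.07 ± 0.08 and Hk2 at 0.09 ± 0.06, with adjusted p of 0.597 or more. The number of glycolytic genes past the threshold rested on single libraries, being 1 (Slc16a3) without stiff library 2 in serum, the library that stood apart and the highest in serum for Gapdh and Aldoa (adjusted p of the other 5 from 0.119 to 0.268), 1 without soft library 2 in serum and 2 without stiff library 1 or 3 in serum + PD03. It was 3 or more in each pool assignment. Gapdh, Eno1 and several other genes of the pathway have processed copies in the genome, and how multiply matching reads were counted is not given in the sources used here.

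Of the 13 genes of fatty acid handling, 2 were positive, namely the fatty acid synthase Fasn (0.24 ± 0.06, edgeR adjusted p = 0.0461) and the acyl-CoA synthetase Acsl4 (0.35 ± 0.09, adjusted p = 0.0356). Fabp3 was the only negative one, and the median was 0.007. Over all genes 0.407% were positive and 0.39% negative. Each of Fasn and Acsl4 was past the threshold in 10 of the 45 pool assignments. None of the 17 genes of cholesterol synthesis passed with edgeR, DESeq2 or limma voom, 3 had an unadjusted p under 0.05, and the median was -0.046. At the share of 0.797% over all genes a list of this size holds few calls or none.

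**Figure D3:**
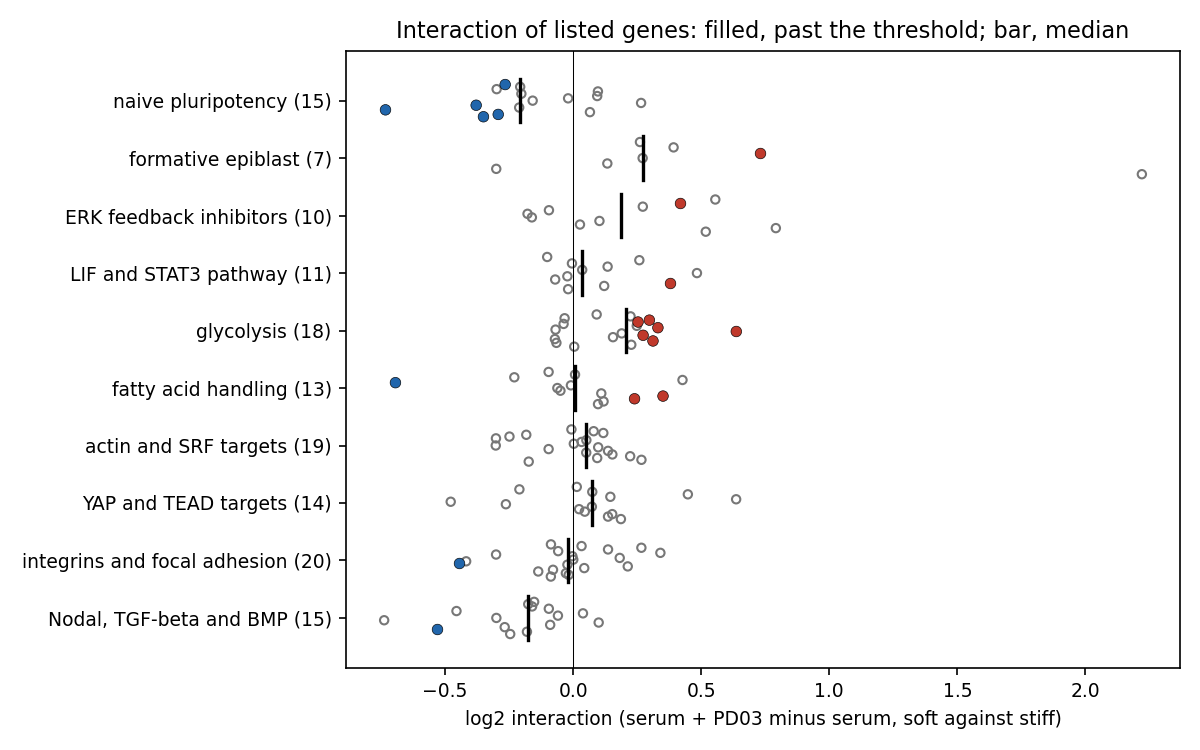
Log2 interaction (x axis) of each tested gene in 10 gene lists, with the number of tested members in brackets. Filled points passed the threshold (red positive, blue negative), open points did not, and vertical bars are list medians. Filled points lie to the left for naive pluripotency and to the right for glycolysis, and the actin and SRF and the YAP and TEAD lists hold none.

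Targets of SRF and YAP were the lists tied most closely to stiffness. None of the 19 tested actin and SRF targets and none of the 14 YAP and TEAD targets had an edgeR adjusted p under 0.05 for the interaction, and at the share of 0.797% over all genes lists of this size hold few calls or none. Unadjusted, 4 and 2 of them had a p under 0.05, and DESeq2 and limma voom called 0 in both lists. In the separate media 15 of the 19 and 10 of the 14 were lower on soft past the threshold in serum, and 16 and 10 in serum + PD03. Over all genes 2.77% and 3.42% were lower on soft in these media. Substrate nearly coincided with sequencing pool in these comparisons. The list medians were -0.341 and -0.43 in serum, -0.433 and -0.52 in serum + PD03, and 0.051 and 0.074 for the interaction.

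Acta2, smooth muscle actin, stood at 22.6, 21 and 26.4 CPM on stiff and 9.92, 8.89 and 7.19 CPM on soft in serum, and at 151, 138 and 130 CPM on stiff and 50.7 to 69.6 CPM on soft with PD03. Soft and stiff were thus well apart in both media, and the interaction was 0.22 ± 0.17 (edgeR adjusted p = 0.656). Soft minus stiff in CPM was -14.7 in serum and -78.6 with PD03. The difference of the differences was -63.9 ± 7.01 CPM (SE), of the opposite sign to the log2 interaction. Tagln, a calponin-related actin-binding protein, had an interaction of -0.10 ± 0.18 (adjusted p = 0.902). Thbs1, a matrix glycoprotein, and Csf1, a cytokine, stood at 0.27 ± 0.10 and 0.45 ± 0.18 (adjusted p = 0.265 and 0.269). In CPM the difference of the differences was -8.54 ± 1.38 for Tagln, 5.07 ± 2.69 for Thbs1 and -2.96 ± 1.71 for Csf1. The errors on the log2 scale leave room for interactions of the size of those called for other genes, so the values do not show that the responses were equal.

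Called genes tied to the cytoskeleton went both ways. Cald1, an actin-binding protein named after its values were seen, had a log2 fold change of -0.82 in serum and -0.43 in serum + PD03, with a positive interaction of 0.39 (edgeR adjusted p = 0.0143). Tes (0.53), Nes (0.46), Nefh (0.34) and Ezr (0.31), chosen likewise, were also positive. Nexn, an actin-binding protein, stood at 9.42, 7.70 and 9.07 CPM on stiff and at 9.57, 8.60 and 9.89 CPM on soft in serum, where the groups overlapped. With PD03 it stood at 8.33, 7.65 and 10.1 CPM on stiff and at 3.45 to 5.52 CPM on soft, without overlap. The interaction was -0.99 ± 0.20 (edgeR adjusted p = 0.00614). Lrp2, the endocytic receptor megalin (ENSMUSG00000027070, chromosome 2, 69424340 to 69586065, minus strand), was lower on soft in both media. It stood at 252, 230 and 225 CPM on stiff and 186, 192 and 186 CPM on soft in serum, and at 393 ± 0.756 CPM (mean ± SD, n = 3) on stiff and 210 to 245 CPM on soft with PD03. Its log2 fold change was -0.33 ± 0.06 in serum and -0.80 ± 0.05 in serum + PD03, an interaction of -0.47 ± 0.07 (edgeR adjusted p = 9.52e-05). Amot, a regulator of YAP at cell junctions, Plec, a cytoskeletal linker, and Sox11 shared this form, with interactions of -0.42, -0.29 and -0.46. These 3 genes were named after their values were seen.

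Other adhesion and signalling genes followed different courses. Tns1, a focal adhesion protein, was the only one of 20 integrin and adhesion genes past the threshold, against 0.797% of all genes. It was higher on soft in serum (0.42 ± 0.07) and stood at -0.02 ± 0.05 in serum + PD03, with an interaction of -0.45 ± 0.08 (edgeR adjusted p = 0.0024). Vim, an intermediate filament protein, was lower on soft in serum alone, with an interaction of 0.25 ± 0.06 (adjusted p = 0.0265). Id3, a target of BMP signalling, was lower on soft with PD03 (-0.44 ± 0.08) and stood at 0.09 ± 0.07 in serum, an interaction of -0.53 ± 0.10 (edgeR adjusted p = 0.00346). It was the only one of 15 genes of the Nodal, TGF-beta and BMP list past the threshold, against 0.797% of all genes. Of the 15, 13 were below 0 (median -0.175). Hhip, which binds and restrains Hedgehog ligands, went from 3.03, 3.54 and 2.71 CPM on stiff and 6.41, 7.69 and 6.32 CPM on soft in serum to overlapping levels of 39.8 to 48.2 and 41.2 to 47.0 CPM with PD03. Its interaction was -1.17 ± 0.20 (edgeR adjusted p = 0.000426).

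ERK feedback itself showed 1 call among 10 inhibitors, against 0.797% of all genes. Spry2, a feedback inhibitor of receptor signalling, was lowered by PD03 more on stiff (by 2.30 on the log2 scale) than on soft (by 1.88). It stood at 18, 16.3 and 16 CPM on stiff and at 18.5 to 24.2 CPM on soft with PD03, and its interaction was 0.42 ± 0.09 (edgeR adjusted p = 0.0168). The median of the 10 feedback inhibitors was 0.187 and 7 of them were above 0. Spry4 stood at 0.384, 1.15 and 0.257 CPM on stiff and 0.966 to 1.36 CPM on soft with PD03, with an interaction of 0.79 ± 0.29 (adjusted p = 0.223), and without stiff library 2 in serum + PD03 it passed the threshold (1.85, adjusted p = 0.00737). Dusp6 and Etv4 stood at 0.27 ± 0.13 and 0.42 ± 0.23 (adjusted p = 0.421 and 0.518). None of the 13 ERK-driven transcription factors passed with edgeR, DESeq2 or limma voom, and 4 had an unadjusted p under 0.05. At the share of 0.797% over all genes a list of this size holds few calls or none.

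The same interaction was measured in 12 other libraries, from cells in serum + LIF and serum + LIF + PD03 on both substrates. There 189 genes passed the threshold (1.07% of all genes), 21 positive (0.119%) and 168 negative (0.949%). Of the 141 genes called without LIF, 19 were also called with LIF, which is 13.5% of the former and 10.1% of the latter list, and all 19 had the same sign. Of these 17 were negative and 2, Utf1 and Ssbp4, positive. Over the 141 genes, 109 had the same sign with LIF, against 53.6% of all genes. The median interaction with LIF was 0.05 for the 72 positive and -0.18 for the 69 negative genes.

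Values with LIF are given by pattern, as a description. Of the 6 genes inverted from higher to lower on soft, 5 were called with LIF, all but Ccnd2. Sh3pxd2a had an interaction of -0.74 ± 0.07 and Fabp3 one of -0.97 ± 0.09 with LIF (edgeR adjusted p = 1.22e-09 and 7.48e-11). Lrp2, Amot, Plec and Sox11 were all called with LIF, Lrp2 at -0.91 ± 0.08 and Amot at -1.01. Of the 18 negative genes that differed with PD03 alone 7 were called with LIF, among them Nexn (-1.38 ± 0.22). Of the 33 genes higher on soft in serum alone 1 was called, Tfap2c (-0.44 ± 0.08), and the median was -0.10. Of the 38 genes lower on soft in serum alone 22 had the same sign with LIF, and their median was 0.02. Slc16a3 stood at 0.07 ± 0.12, Gapdh at 0.01 ± 0.07, Tbx3 at -0.05 ± 0.07, Prdm14 at -0.08 ± 0.16 and Pou3f1 at -0.23 ± 0.18 with LIF. Mt1 and Mt2 stood at 0.26 ± 0.09 and 0.33 ± 0.10 (adjusted p = 0.207 and 0.106).

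Whether the interaction differed between media without and with LIF was tested directly. None of the 141 genes passed that test in edgeR, while 9 did with DESeq2 and 0 with limma voom. Unadjusted, 87 had an edgeR p under 0.05, against 1500 of all 17702 genes. The 141 were chosen on the interaction without LIF, which is part of this difference, so the 87 are a description. With none past the threshold in edgeR, the naive and glycolytic genes are not shown to be particular to media without LIF. In all 10 genes passed (0.0565% of those tested), and the difference was positive for each. They were Thbs1, Flnc, Peg3, Acta2, Peg10, Cgn, Parva, Csf1, Zyx and Pmp22. Thbs1 had an interaction of 0.27 ± 0.10 without LIF and -0.84 ± 0.11 with LIF, a difference of 1.10 ± 0.15 (edgeR adjusted p = 8.15e-05). For Flnc, which crosslinks actin, the values were -0.30 ± 0.09 and -1.10 ± 0.10, and for Acta2 0.22 ± 0.17 and -1.13 ± 0.20. These differences were 0.80 ± 0.14 (adjusted p = 0.00393) and 1.35 ± 0.26 (adjusted p = 0.0147). With LIF, 10 of the 19 actin and SRF targets and 2 of the 14 YAP and TEAD targets had a negative interaction past the threshold. The share over all genes was 0.949%. Without LIF none of either list did, but such counts are no test of a difference between media, which only the 10 genes named above passed. The number of genes in which the interactions differed rested on single libraries, ranging from 3 without soft library 1 or 2 to 35 without soft library 3 in serum + LIF.

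**Figure D4:**
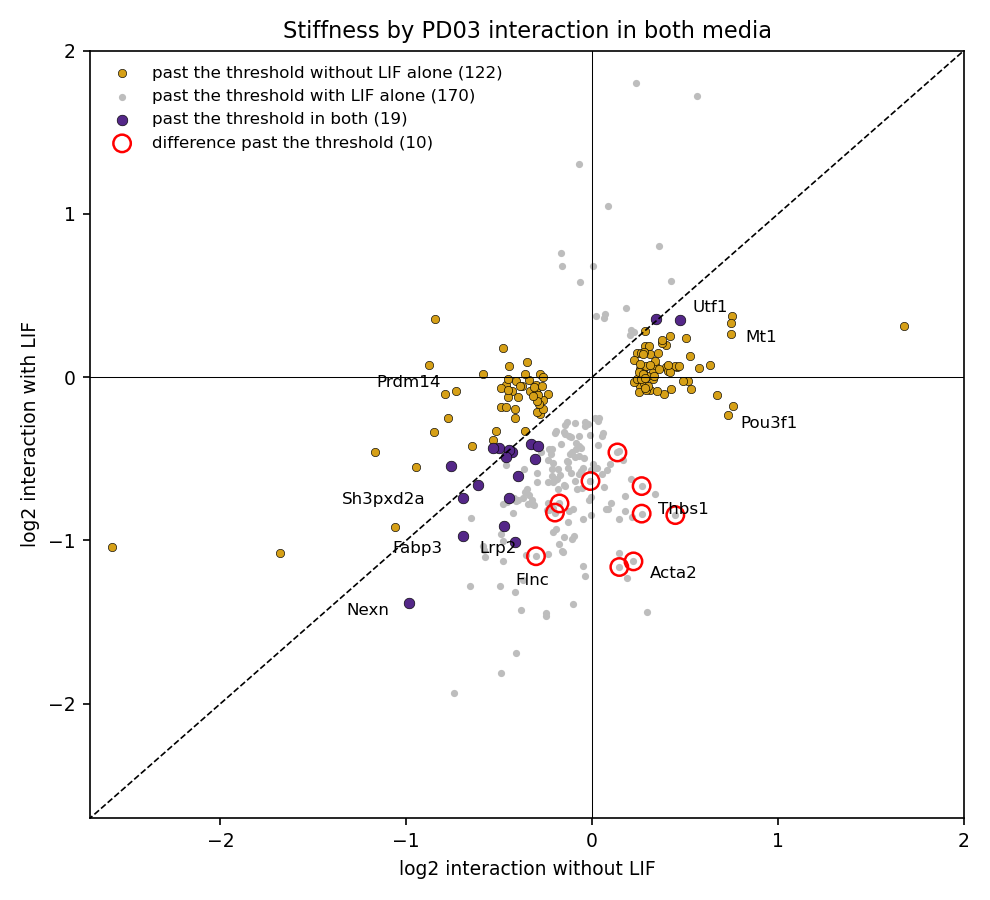
Log2 interaction without LIF (x axis) against that with LIF (y axis) for genes past the threshold in either. Yellow points passed without LIF alone (122), grey points with LIF alone (170), violet points in both (19), red circles mark the 10 genes whose 2 interactions differed past the threshold, and the dashed line marks equality. Violet points lie in the lower left and upper right quadrants, most yellow points lie nearer to 0 on the y axis than on the x axis, and 5 genes fall outside the axes. Yellow points were selected for passing on the x axis and not on the y axis, which favours this position.

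The count of 141 genes depended on the libraries and the pool term, while signs on the log2 scale did not. With pool as a term the count ranged from 76 upwards, 54 genes were called in all 45 assignments, and no gene of the 141 changed its sign in any. Leaving out soft library 2 in serum gave the lowest count, 49. The count was 68 without stiff library 1 or 3 in serum + PD03, 85 without stiff library 2 there or soft library 3 in serum, 90 without soft library 1 and 91 without stiff library 2 in serum. No sign changed in these fits either. The 141 genes were selected in these same libraries for interactions that were large beside their SE, so the kept signs are a description. With library totals in place of TMM scaling, the split was 39 positive and 130 negative genes, against 72 and 69.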

How the data were processed

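RNA was extracted from mESCs on hydrogels and sequenced. Per the labels, the authors aligned reads with STAR 2.5.2a to mm10 and counted them per gene with HTSeq, and the submitters' processing notes also name DESeq. The authors deposited raw read counts, whole numbers without normalisation, for 49671 Ensembl genes in 36 columns, each named by group alone. Columns were therefore assigned to groups, and library numbers are only names. The strand setting is not given in the sources used here.

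The analysis used edgeR 4.0.16 (R 4.3.3). The filterByExpr function kept 17702 genes with 99.92% of counts, and TMM scaling was used. All 36 libraries entered one quasi-likelihood fit with a mean for each of 11 groups, and each comparison is a contrast of those means, adjusted by Benjamini-Hochberg over the 17702 genes. The SE of a log2 value is its size divided by the square root of its F statistic. Of the identifiers, 49326 matched a gene symbol. CPM values were computed here with TMM-scaled library sizes, and differences in CPM have an SE from the group variances. Coordinates come from GENCODE M21 on GRCm38. DESeq2 1.42.0 and limma 3.58.1 voom were alternatives, as were other scalings and filters, fits on fewer libraries and a pool term.

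Genes named were the 8 per direction with the smallest p, the 4 per direction with the largest interaction at 5 CPM or more in some group, list members past the threshold (for the epiblast clusters 3 per direction by p), up to 6 genes called in both interactions, up to 3 called in the difference between media, and 9 fixed checks. Others are said to be chosen after their values were seen or illustrate counts. The comparison and the lists were chosen with earlier results of these data known. Replicate libraries were checked for duplicates, and over 24 pairs the chi-square per gene ran from 2.39 to 13.4, above sampling noise. On simulated counts for this comparison (17499 genes after filtering, 200 changed), 50.7% of genes with a log2 interaction of 0.4, 91.0% of those with 0.7 and 98.5% of those with 1 were recovered, with 4.19% false calls. These rates describe the simulated counts alone. In the real libraries pool nearly coincided with substrate, a library stood apart, and the number of calls changed when single libraries were left out. Whether the rates hold for the real calls was not tested.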

Additional observations from a re-analysis of the deposited data

Results flagged for a closer look

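In the group of 6 libraries from soft substrates in serum + PD03, 2 of 56 named genes had a library that stood apart by Dixon's criterion, and chance alone marks about 1 in 20. Klf2 was at 348 CPM in its lowest library, with the next at 391 CPM. Zim1 was at 3.78 CPM in its highest library, with the next at 2.48 CPM.

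The test of the interaction without LIF minus that with LIF marked 10 genes, all with a positive difference. The differences on the log2 scale were 1.10 for Thbs1, 0.80 for Flnc, 0.60 for Peg3, 1.35 for Acta2, 0.63 for Peg10, 0.63 for Cgn, 0.93 for Parva, 1.29 for Csf1, 0.60 for Zyx and 1.31 for Pmp22. Flnc and Zyx encode actin-associated proteins, Parva encodes an adhesion adaptor, and Peg3 and Peg10 are imprinted genes expressed from the paternal allele.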

How the results depend on the processing

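No paired analysis was possible because the columns carry no replicate numbers, so no replicate block was fitted. Against 141 calls without LIF (72 positive, 69 negative), library totals alone gave 39 positive and 130 negative, no filter gave 222 (137 positive), the stricter filter gave 105 negative, and the DESeq2 Wald test gave 235 (140 positive). With pool as a term the lowest counts were 76, 35 positive and 41 negative. The difference between media, 10 genes, gave 84 with no filter, 36 with DESeq2, 5 with limma voom, and 1 to 32 with the pool term. With LIF, the 21 positive calls were 11 in a fit over 12 libraries and 8 at the lowest with the pool term. The 858 genes that differed in serum were 173 to 384 with the pool term, and the 982 in serum + PD03 were 276 at the lowest. Leaving out 1 library, the interaction without LIF gave 49 to 137 calls (15 to 75 positive, 34 to 67 negative) and that with LIF 114 to 256 (7 to 19 positive, 104 to 237 negative). The difference between media gave 3 to 35, serum 546 to 901, serum + PD03 520 to 976, and the PD03 effects 9372 to 10308 on soft and 9225 to 9949 on stiff. The lowest values came without soft library 2 in serum (546), without stiff library 1 or 3 in serum + PD03 (520 and 650) and, with LIF, without soft library 2 in serum + LIF (114). The difference between media fell to 6 or fewer without any of 9 libraries, and rose to 22 without stiff library 3 and 35 without soft library 3 in serum + LIF. Of 45 named genes past the threshold 26 kept an adjusted p under 0.05 in every fit. None of the 56 named genes changed the sign of its log2 interaction in any fit, although the 45 past the threshold were selected in these same libraries. On the CPM scale some had the opposite sign, among them Tfcp2l1 (23.6 ± 9.14 CPM) and Acta2 (-63.9 ± 7.01 CPM). The leave-one-out fits with LIF, the alternatives for the simple effects and the CPM scale were added after seeing the data. The causes were not tested. Interactions of about 0.4 were recovered in only 50.7% of simulated cases, so genes of that size may be missed.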

Other observations

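Further genes with a positive interaction are given as single values, picked after their values were seen, with no list or test behind them. Ddx21, a nucleolar RNA helicase, had an interaction of 0.23, Rrp9 one of 0.28, Ebna1bp2 one of 0.26, Nip7 one of 0.31 and Rsl24d1 one of 0.30, and the ribosomal proteins Rpl29 and Rpl27a stood at 0.49 and 0.28 (edgeR adjusted p between 0.0033 and 0.0452). Mean levels of Ddx21 were 873 CPM on soft and 940 CPM on stiff in serum, and 495 and 456 CPM in serum + PD03. With LIF the interactions of these 7 genes ran from -0.03 to 0.19. Ribosomal protein genes have many processed copies, so their counts are uncertain.

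The largest interactions were those of genes near the detection limit, also named after their values were seen. Alox15 (3.98) averaged 2.25 CPM on soft and 4.49 CPM on stiff in serum, and 0.336 and 0.0273 CPM in serum + PD03. Gm13068 (-2.58) averaged 0.796 and 0.153 CPM in serum, and 0.857 and 1.11 CPM with PD03. Fitted folds at such levels depend on the prior count.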
